A study of Mus musculus with 2 samples.

Results

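Enzymes that make serine and pass its carbon through glycine and folate were followed in Klf5-overexpressing mouse embryonic stem (ES) cells. Klf5 is a transcription factor with zinc fingers that helps to sustain ES cell self-renewal. The members were the 9 listed enzymes of the serine, glycine, folate and methionine cycles, and all probe sets that the platform annotation gives to such an enzyme alone were taken. They were 21 probe sets of 8 genes, among 34945 single-symbol probe sets of 18193 genes and 45037 probe sets in all. Mat2a, which makes the methyl donor S-adenosylmethionine, had 0 probe sets with a single symbol in the annotation used here, so its signal was not analysed. RNA came from 2 Klf5-overexpressing clones of the E14 line, grown undifferentiated with serum and leukaemia inhibitory factor, with 1 Affymetrix array per clone. Both clones form 1 group, so the values show the level of each enzyme in these cells and how far clone 2 and clone 1 differ. The wild-type ES clones that the study set them against were not used here, and no value below measures an effect of Klf5. The labels do not say how the transgene was driven, and a clone is 1 isolate.

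Serine is made from the glycolytic intermediate phosphoglycerate in a short pathway opened by Phgdh. The Shmt enzymes then split it into glycine and a carbon unit carried by folate, Shmt1 in the cytosol and Shmt2 in mitochondria. Glycine can give a further carbon unit through the glycine cleavage system, and the Mthfd enzymes interconvert the folate-bound units for use in purine, thymidylate and methionine synthesis. Rapidly dividing ES cells draw on these units for nucleotides, and mouse ES cells are known to feed the same pool from threonine. The pathway also supplies the methyl groups of DNA and histone methylation.

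All 21 probe sets were above background in both clones, against 41.2% of all single-symbol probe sets. A probe set was counted as above background where its log2 signal exceeded the 95th percentile of 78 probe sets of adult-tissue genes, 6.28 in clone 2 and 6.52 in clone 1. The members lay between 7.43 and 12.00 in clone 2 and between 6.98 and 12.15 in clone 1. None of them differed 2-fold between the clones, the fixed rule of size used in place of a test. That rule was met by 0.711% of the 15757 probe sets that passed the background in either clone or both, 0.616% of them higher and 0.0952% lower in clone 2. The median difference of the members, clone 2 minus clone 1, was 0.04 on the log2 scale, against 0.09 over those 15757 probe sets. Of the 21 probe sets 13 were higher in clone 2, 7 lower and 1 equal, where 63.6% of the 15757 were higher. How the arrays are scaled changes this split, and the share over all probe sets above background moves with it. With quantile or loess normalization 9 members were higher and 12 lower, where 49% of all such probe sets were higher under quantile and 52.1% under loess normalization. With median centring 17 members were higher and 4 lower, where 76.9% of all such probe sets were higher. With 1 array per clone there is no p-value in this account.

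**Figure D1:**
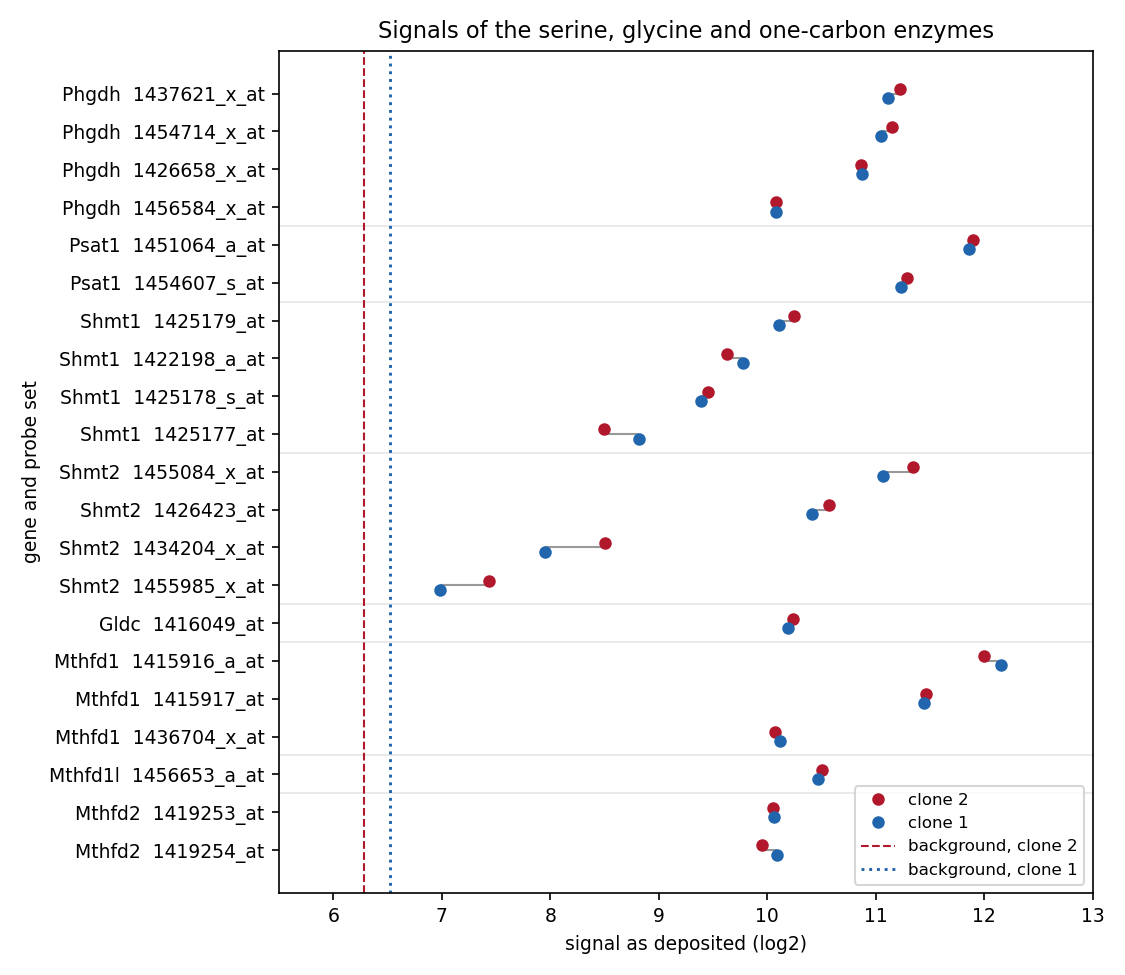
Deposited log2 signal (x axis) of the 21 probe sets of 8 enzymes (y axis) in clone 2 (red) and clone 1 (blue), 1 array each, with the background level of each clone as a vertical line. All points lie right of both lines, and the widest pairs are 1434204_x_at and 1455985_x_at of Shmt2 and 1425177_at of Shmt1.

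Each of the 10 listed ES cell markers passed the background in both clones, where 49.6% of all measured genes did. In clone 2 Pou5f1 was 12.43, Nanog 12.49, Sox2 12.55 and Zfp42 12.77, and in clone 1 Pou5f1 was 12.26, Nanog 12.21, Sox2 12.39 and Zfp42 12.69. By brightest probe set 9 of the 10 markers were higher in clone 2 and 1 lower, as deposited. Over the 9653 genes that passed in either clone 63.6% were higher, and the markers were not followed under other scalings. The marker differences ran from -0.09 in Dppa5a, the brightest, to 0.45 in Esrrb and in Tbx3. Fibroblast markers, which would show feeder cells, passed for 2 of 10 genes, Thy1 (7.66 in clone 2, 7.54 in clone 1) and Pdgfrb (7.16 in clone 2, 7.33 in clone 1), and the collagens Col1a1, Col1a2 and Col3a1 did not. Klf5 itself read 12.25 in clone 2 and 11.61 in clone 1 by its brightest probe set and 7.26 in clone 2 and 6.97 in clone 1 by another. The last, below background, read 4.77 in clone 2 and 4.81 in clone 1. Across all probe sets the clones correlated with r = 0.990, a description across probe sets of 2 arrays.

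The upstream sequences of Shmt2, Shmt1 and Gldc are shown, because Shmt2 was the enzyme that differed most between the clones, Shmt1 is its cytosolic counterpart with probe sets that split, and Gldc carries adjoining matches. Each is the 250 bases before the annotated start of the gene, from RefSeq on build GRCm38.p6 and 5′ to 3′ on the strand of the gene, which is the minus strand for all 3. Capitals mark matches to CCNCNCCC, a box of the GC-rich and CACCC type that Klf factors bind, on either strand. The Shmt2 stretch is chr10:127522445-127522694, that of Shmt1 is chr11:60811266-60811515, and that of Gldc is chr19:30175442-30175691.
Shmt2: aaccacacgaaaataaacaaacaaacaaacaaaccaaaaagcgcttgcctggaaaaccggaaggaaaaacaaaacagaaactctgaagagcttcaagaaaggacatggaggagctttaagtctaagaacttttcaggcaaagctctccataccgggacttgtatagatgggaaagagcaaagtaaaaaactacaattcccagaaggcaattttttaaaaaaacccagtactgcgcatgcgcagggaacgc
Shmt1: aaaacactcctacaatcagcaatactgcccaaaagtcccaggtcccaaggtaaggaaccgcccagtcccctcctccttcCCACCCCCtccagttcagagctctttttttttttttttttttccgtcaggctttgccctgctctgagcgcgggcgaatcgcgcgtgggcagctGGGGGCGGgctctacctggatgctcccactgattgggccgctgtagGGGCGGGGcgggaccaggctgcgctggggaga
Gldc: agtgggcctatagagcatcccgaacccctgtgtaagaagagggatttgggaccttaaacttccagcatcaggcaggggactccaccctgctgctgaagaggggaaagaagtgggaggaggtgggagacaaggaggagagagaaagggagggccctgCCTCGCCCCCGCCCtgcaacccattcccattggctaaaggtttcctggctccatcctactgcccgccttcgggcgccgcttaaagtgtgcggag

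In the windows of 300 bases that run 50 bases past the start, Shmt1 held 3 such boxes, Gldc 2 that overlap, and Shmt2 none. All 9 listed enzymes had a window, Psat1 with 2 start sites. Of these 10 windows 7 held a Klf box, that of Mat2a included, against 49.5% of the 32851 windows in the table. No member window held TGATGNAA, the core of the amino acid response element that Atf4 binds, on either strand (3.97% of all windows), or the E-box CACGTG bound by Myc and Max (7.15%). The GC content of the member windows ran from 42.7% in Shmt2 to 67.0% in Mat2a, with a median of 52.7% over all windows. Every member window except those of Shmt2 and Phgdh (47.7%) was above that median. The Klf box is GC-rich, and its share of 49.5% is not matched for GC content. A match is a description of letters, and nothing here measures binding.

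The serine synthesis enzymes were nearly level between the clones. Phgdh, phosphoglycerate dehydrogenase, which commits phosphoglycerate to serine, was read by 4 probe sets. The set 1437621_x_at gave 11.22 in clone 2 and 11.11 in clone 1 (mean 11.17 ± 0.078, SD, n = 2). The set 1454714_x_at gave 11.15 in clone 2 and 11.05 in clone 1, 1426658_x_at gave 10.86 in clone 2 and 10.87 in clone 1, and 1456584_x_at gave 10.08 in both clones. The differences thus ran from -0.01 to 0.11, a range of 0.12, where genes with 4 probe sets above background had a median range of 0.45. That median, like those given for other genes below, covers genes of every signal level and is not matched for signal. Bright sets such as those of Phgdh differ less in general. Each Phgdh probe set carries the suffix that Affymetrix gives to sets with probes that may also match other sequences, so Phgdh had 0 sets free of that mark, and the share of other transcripts in its signal was not tested.

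Psat1, phosphoserine aminotransferase, which catalyses the next step, read 11.90 in clone 2 and 11.86 in clone 1 with 1451064_a_at, and 11.29 in clone 2 and 11.23 in clone 1 with 1454607_s_at. The differences of 0.04 and 0.06 are 1.03-fold and 1.04-fold. All probe sets above background were put in 4 bands of near-equal size by mean signal, and of the 3939 in the brightest band 85.5% had a difference as large as that of 1451064_a_at and 77.7% one as large as that of 1454607_s_at. Psph, the phosphatase that ends the pathway and not a member, was 9.99 in clone 2 and 9.80 in clone 1.

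Shmt2, the mitochondrial serine hydroxymethyltransferase, had the largest mean difference of the 8 enzymes, and all 4 of its probe sets were higher in clone 2 under each scaling tried. The set 1455084_x_at gave 11.34 in clone 2 and 11.07 in clone 1 (mean 11.21 ± 0.19, SD, n = 2), a 1.21-fold difference. The set 1426423_at gave 10.57 in clone 2 and 10.41 in clone 1, 1.12-fold. The dimmer sets differed more. The set 1434204_x_at gave 8.50 in clone 2 and 7.95 in clone 1 (1.46-fold), and 1455985_x_at gave 7.43 in clone 2 and 6.98 in clone 1 (1.37-fold). The mean difference over the 4 sets was 0.36 on the log2 scale, a factor of 1.28.

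These values were within what other probe sets of like signal showed. Of the probe sets in the band of each, 8.12% had a difference as large as that of 1434204_x_at, 20.2% as large as that of 1455985_x_at, 20.5% as large as that of 1455084_x_at and 44.0% as large as that of 1426423_at. Among 136 genes with 4 probe sets, all above background in both clones, 22.8% had all 4 higher in clone 2, as Shmt2 did. After the median difference of each band was taken off, a step chosen after the data were seen, the 4 Shmt2 sets still stood 0.12 to 0.42 above 0. They also stayed higher in clone 2 under median centring, quantile and loess normalization. The share of 22.8% holds for the deposited values, and no such share was computed after these other steps. Of the 4 sets 3 carry the mark of probes that may match other sequences, and the 1 without it, 1426423_at, had the smallest difference, 0.16. Probe sets of 1 gene share the RNA of 1 array and are not replicates.

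Shmt1, the cytosolic counterpart, showed no common direction. The set 1425179_at gave 10.25 in clone 2 and 10.11 in clone 1, and 1425178_s_at gave 9.45 in clone 2 and 9.39 in clone 1. The set 1422198_a_at gave 9.63 in clone 2 and 9.78 in clone 1. The set 1425177_at gave 8.49 in clone 2 and 8.82 in clone 1 (mean 8.66 ± 0.23, SD, n = 2), a difference of -0.33, or 1.26-fold. This last set was the only member probe set outside the middle 90% of the differences of its band, -0.27 to 0.57, and 20.8% of that band differed by as much or more. The differences of the 4 sets spanned 0.47, close to the median range of 0.45 for genes with 4 probe sets. Which transcripts each set reads was not tested.

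**Figure D2:**
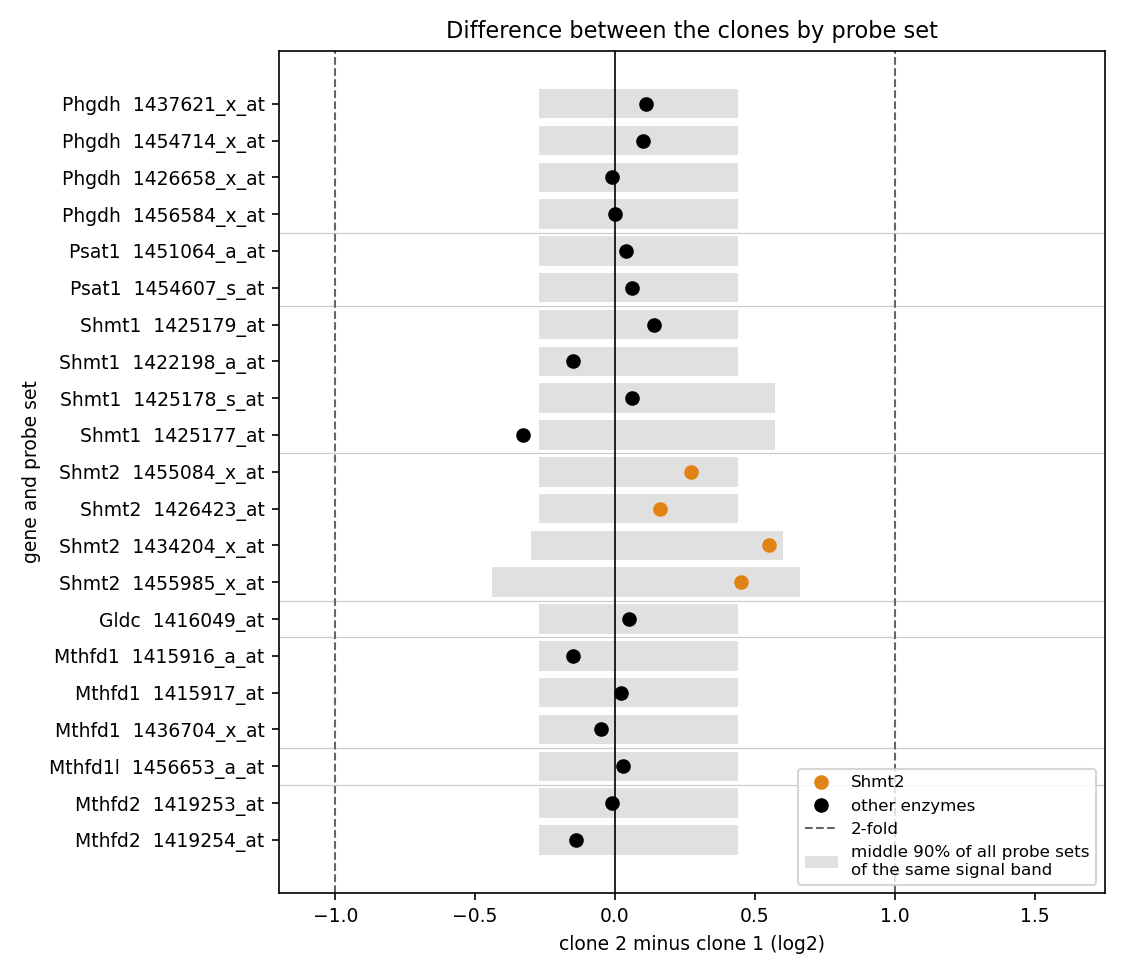
Difference between the clones (x axis, clone 2 minus clone 1, log2) for each of the 21 member probe sets (y axis), with Shmt2 in orange, the other enzymes in black and 2-fold as dashed lines. Grey bars span the middle 90% of the differences of all probe sets of the same signal band. All 4 Shmt2 sets lie right of 0, and 1425177_at of Shmt1, at -0.33, is the 1 point outside its bar.

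Gldc, glycine decarboxylase, the subunit of the glycine cleavage system that removes the carboxyl group of glycine, was read by 1 probe set. It gave 10.24 in clone 2 and 10.19 in clone 1 (mean 10.22 ± 0.035, SD, n = 2), and 81.5% of the probe sets of its band had a difference as large. Of its partners in the complex, not members, the lipoyl carrier Gcsh was 11.95 in clone 2 and 11.82 in clone 1. The shared dehydrogenase Dld was 10.35 in clone 2 and 10.16 in clone 1. These differences of 0.13 and 0.19 lie on either side of the median absolute difference of 0.14 in the same band.

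The folate-interconverting enzymes differed by no more than 0.15 in any of their 6 probe sets. Mthfd1, the cytosolic trifunctional enzyme, gave 12.00 in clone 2 and 12.15 in clone 1 with 1415916_a_at (mean 12.08 ± 0.11, SD, n = 2). With 1415917_at it gave 11.46 in clone 2 and 11.44 in clone 1, and with 1436704_x_at 10.07 in clone 2 and 10.12 in clone 1. Mthfd1 was thus lower in clone 2 by 2 sets and higher by 1, all within a span of 0.17. The median span for genes with 3 probe sets was 0.34, not matched for signal.

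Mthfd1l, the mitochondrial enzyme that releases formate to the cytosol, gave 10.50 in clone 2 and 10.47 in clone 1 with its 1 probe set. Mthfd2, the mitochondrial dehydrogenase and cyclohydrolase that is abundant in embryonic and tumour tissue and low in most adult tissue, gave 10.05 in clone 2 and 10.06 in clone 1 with 1419253_at, and 9.95 in clone 2 and 10.09 in clone 1 with 1419254_at. As deposited it was the only member with all of its probe sets lower in clone 2, with differences of -0.01 and -0.14; under median centring 1 of the 2 was higher, and under quantile or loess normalization Mthfd1, Mthfd1l and Gldc also had all of their sets lower. The larger of these is 1.10-fold, and 50.3% of the probe sets of its band differed as much.

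The member differences were near in size to those of probe sets of like signal. The median absolute difference of the members was 0.10, against 0.18 over all 15757 probe sets and 0.14 in the brightest band, which holds 17 of the 21. The absolute difference was under the median of its own band for 12 of the 21 sets and over it for 7. A median splits all sets of a band about evenly, and sets of the same gene are not replicates. The 17 probe sets of the 7 genes other than Shmt2 had a median difference of 0.02 and a median absolute difference of 0.06, with 9 sets higher and 7 lower in clone 2. Shmt2 was left out after the data were seen, as the enzyme with the largest mean difference, so smaller values are built into this choice. The largest SD over the 2 clones in any member probe set was 0.39, in 1434204_x_at of Shmt2, and the median SD was 0.071. The brightest band has the smallest spread of differences, with an SD of 0.219 against 0.346 in the dimmest. A pattern over 2 arrays has only a direction and a size, so no gene was named for a pattern like that of an enzyme.

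**Figure D3:**
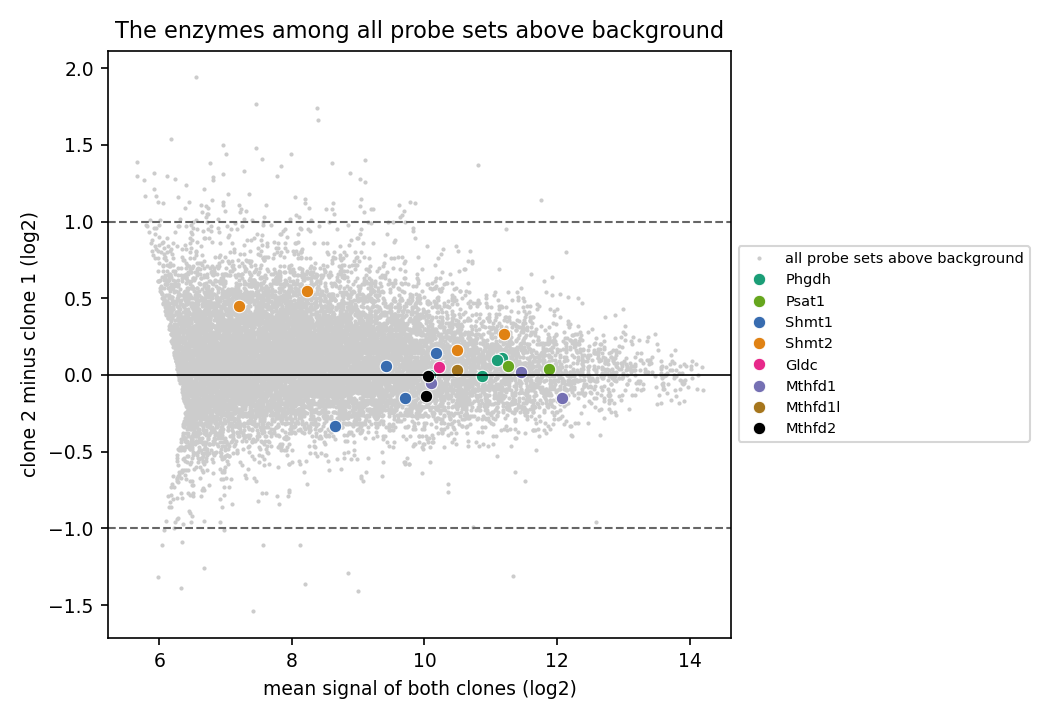
Difference between the clones (y axis, clone 2 minus clone 1, log2) against the mean signal of both clones (x axis, log2) for the 15757 probe sets that passed the background in either clone (grey) and the 21 member sets (coloured by gene), with 2-fold as dashed lines. Of the 21 member sets 17 lie in the brightest band, most of them close to 0. The Shmt2 sets all lie above 0. Their largest differences, 0.55 in 1434204_x_at and 0.45 in 1455985_x_at, are in dimmer sets, at mean signals of 8.225 and 7.205. The set 1425177_at of Shmt1, also outside the brightest band, lies at -0.33.

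With each gene read by its brightest probe set, 6 of the 8 enzymes were higher in clone 2 and 2 lower, with a median of 0.045. Over the 9653 genes that passed in either clone 63.6% were higher and the median was 0.09. In quantile or loess normalized values 4 of the 8 were higher. In the rest of the pathway, 58 other genes of serine supply, glycine, folate, methionine, transsulfuration and purine synthesis were listed and 49 measured. Of these 36 were above background in both clones and Gnmt in clone 2 alone, where 49.6% of all measured genes passed in both. None of the 37 differed 2-fold, against 0.477% of all genes above background, and 29 were higher in clone 2, 7 lower and 1 equal, with a median of 0.14. With quantile normalization 22 of the 37 were higher and the median was 0.02, where 49% of all probe sets above background were higher. With loess normalization 26 were higher and the median was 0.04, where 52.1% of all such probe sets were.

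In serine supply 5 of 6 measured genes passed, all higher in clone 2 by 0.01 to 0.22 with a median of 0.14. Under quantile normalization 2 of the 5 were higher, 2 lower (the transporters Slc1a5 and Slc6a9) and the median was 0, and under loess normalization 4 were higher, Slc6a9 was lower and the median was 0.03. The neutral amino acid transporter Slc38a2 was 10.70 in clone 2 and 10.48 in clone 1, and the serine racemase Srr did not pass. Of 9 other measured folate cycle genes 4 passed, all higher in clone 2 by 0.04 to 0.16, of which Ggh turned lower under quantile or loess normalization. They included Fpgs, which adds the glutamate tail that keeps folate in the cell (9.60 in clone 2 and 9.44 in clone 1), and the mitochondrial formyltransferase Mtfmt, which formylates the initiator methionyl-tRNA (7.60 in clone 2 and 7.44 in clone 1). Folate transport had a median of -0.07 over 4 genes that passed of 5, which median centring turned to 0.02. Under quantile normalization all 4 were lower in clone 2 (median -0.17), and under loess normalization 3 were (median -0.16). The folate receptor Folr1 was 10.45 in clone 2 and 10.55 in clone 1, and the reduced folate carrier Slc19a1 was 8.55 in clone 2 and 8.70 in clone 1, with 8.02 in clone 2 and 7.94 in clone 1 in another set. The mitochondrial folate carrier Slc25a32 was 8.01 in clone 2 and 7.87 in clone 1, and another of its sets read 7.35 in clone 2 and 6.49 in clone 1, the clone 1 value being just under background.

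The methionine cycle, which takes up the folate-bound carbon, passed for 8 of 12 measured genes in both clones and for Gnmt in clone 2 alone. Of these 9 genes 6 were higher in clone 2, 2 lower and 1 equal, with a median of 0.12. Under quantile or loess normalization 5 were higher and 4 lower, with medians of 0.015 under quantile and 0.04 under loess normalization. The methionine salvage enzyme Mtap was 10.09 in clone 2 and 10.38 in clone 1, and the methionine synthase Mtr was 8.04 in clone 2 and 8.18 in clone 1. Both were lower in clone 2 by their brightest sets as deposited and under median centring, quantile and loess normalization. Ahcy, which clears S-adenosylhomocysteine, was 12.19 in clone 2 and 12.07 in clone 1, and its relative Ahcyl1 was 10.80 in both by its brightest set, lower in clone 2 under quantile or loess normalization, and higher in clone 2 by 0.39 and 0.26 in its other 2. Mtrr, which reactivates methionine synthase, was 10.03 in clone 2 and 9.68 in clone 1. Gnmt, a glycine methyltransferase best known from liver, read 6.62 in clone 2, over its background level, and 6.20 in clone 1, under the higher level there.

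All 5 genes of transsulfuration and glutathione synthesis passed in both clones, where 49.6% of all measured genes did. By brightest probe set each was higher in clone 2 (median 0.20), also under median centring, quantile and loess normalization (medians 0.29, 0.08 and 0.10). Of all genes above background 63.6% were higher as deposited, with a median of 0.09. Probe sets above background were higher for 76.9%, 49% and 52.1% under the 3 scalings. Further sets of Cbs, Gclc and Gss are not given here. Gclm, the modifier subunit of glutamate-cysteine ligase, had the largest difference of the pathway by brightest probe sets, 10.07 in clone 2 and 9.33 in clone 1 (1.67-fold). Its other set read 7.37 in clone 2 and 6.95 in clone 1. Cth, which releases cysteine, was 10.07 in clone 2 and 9.81 in clone 1. Of the 8 measured purine synthesis genes, which use folate-bound carbon or the products of those that do, all passed and 6 were higher in clone 2, against 7 under median centring, 5 under quantile and 6 under loess normalization. Paics was 12.93 in clone 2 and 12.82 in clone 1, and Gart 12.09 in clone 2 and 11.93 in clone 1, though further sets of each gene went both ways. Atic, which inserts the last folate-derived carbon of the purine ring, was lower in clone 2 in both of its probe sets under each of these scalings, with deposited values of 11.38 in clone 2 and 11.64 in clone 1, and of 9.17 in clone 2 and 9.59 in clone 1.

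Transcription factors known to act on the serine and one-carbon genes differed between the clones in both directions. Atf4, the amino acid stress factor, was 10.95 in clone 2 and 11.22 in clone 1 by its brightest set, and 9.83 in clone 2 and 9.91 in clone 1 by another. In clone 2 Myc was 8.35, Mycn 10.66 and the oxidative stress factor Nfe2l2 10.30, and in clone 1 Myc was 8.03, Mycn 10.71 and Nfe2l2 9.93. Further sets of Mycn read 7.48 in clone 2 and 7.74 in clone 1, and 6.60 in clone 2 and 6.58 in clone 1. The directions of these factors were not followed under other scalings. No relation between these factors and the enzymes can be tested with 2 arrays.

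**Figure D4:**
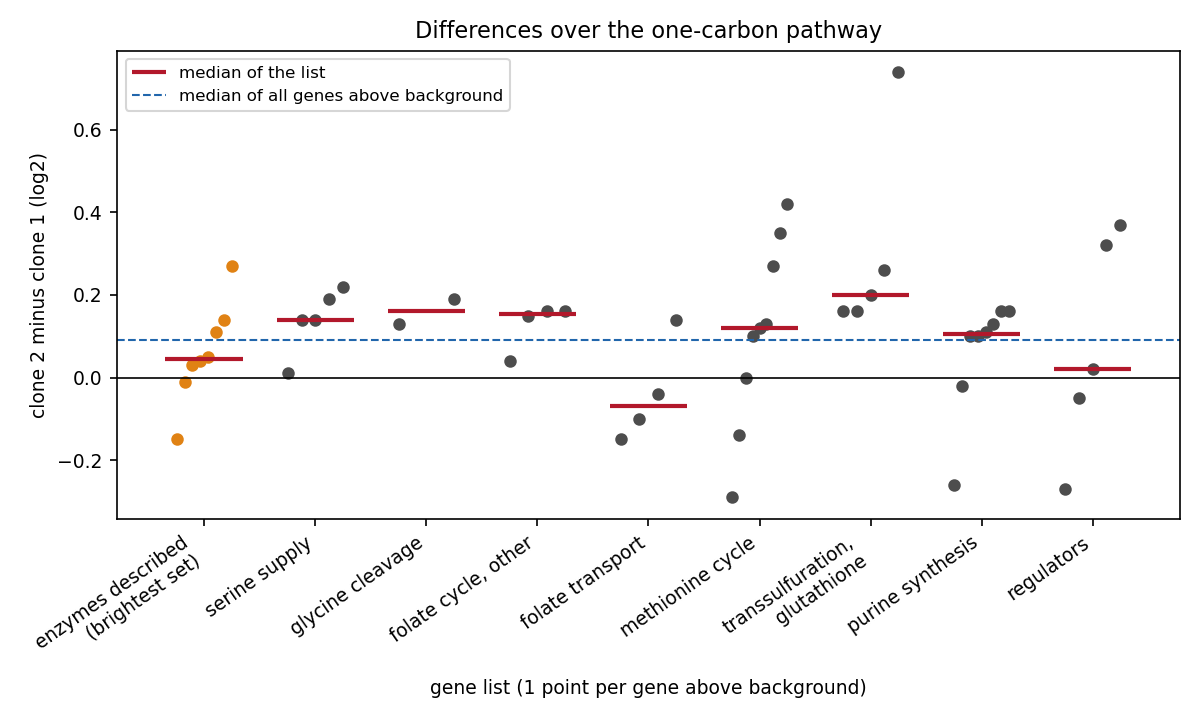
Difference between the clones (y axis, clone 2 minus clone 1, log2) with 1 point per gene (its brightest probe set) that passed the background in either clone, for the 8 enzymes (orange) and 8 further lists of the pathway (grey; x axis). Red bars are list medians, 0.045 for the enzymes and 0.20 for transsulfuration, and the blue dashed line is the median of 0.09 over all genes above background.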

How the data were processed

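Total RNA of 2 clones was measured on Affymetrix arrays, 1 per clone. The table that the authors deposited holds a log2 signal for each probe set, and the submitters' processing notes name Transcriptome Analysis Console. The sources used here do not give the background correction, summarisation, normalization or genome build. The log base follows from the range of the values, 2.21 to 14.38. Column medians were 5.18 in clone 2 and 5.27 in clone 1, and the scaling and centring behind them remain unknown. Detection calls were not available, and 2 arrays limit the precision.

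Values were used as deposited, in Python 3.11.15. Of 45037 probe sets 34945 have 1 symbol, 932 have several and 9160 are unnamed here. Entrez identifiers of all 21 member sets matched the GRCm38.p6 gene table, with 0 symbols changed. Background was the 95th percentile, per array, of 78 probe sets of 53 adult-tissue genes (59 listed). Probe sets above it in either clone were put in 4 bands by mean signal. A difference was called at 2-fold or more with the higher clone above background, a step tested on simulated data. Named were all member and Klf5 sets, from each other list the 2 genes with the largest difference and the 2 brightest, and set regulators and ES cell markers. Named after their values were seen were Srr, Ggh, Slc1a5, Slc6a9, Mtap, Mtr, the collagens and the further probe sets of named genes. Members and lists were chosen with earlier results of these data known. The clone numbers come from the sample titles. The alternatives were other normalizations, other background levels, fewer probe sets and gene means.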

Additional observations from a re-analysis of the deposited data

Results flagged for a closer look

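Beyond the single-symbol probe sets, 2 further sets are annotated to Phgdh together with a predicted gene, and were left out of the comparisons because their signal cannot be given to either gene. Both were above background in both clones. The set 1426657_s_at read 10.32 in clone 2 and 10.07 in clone 1, which differ by 0.25. The set 1456471_x_at read 9.25 in clone 2 and 8.95 in clone 1, which differ by 0.30. Both differences lie in the middle 90% of single-symbol sets of like signal. These spans were -0.27 to 0.44 for the band of 1426657_s_at and -0.27 to 0.57 for that of 1456471_x_at. The 4 sets annotated to Phgdh alone differed by -0.01 to 0.11. With 2 arrays no test of this contrast is possible, and whether the predicted genes add to the signal was not tested.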

How the results depend on the processing

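No paired analysis was possible because both arrays belong to 1 group. Background at the 90th or 99th percentile, or from olfactory and vomeronasal receptor probe sets, kept all 21 member sets above it in both clones, and so did either clone alone (21 and 21). Without sets whose suffix marks possible matches to other transcripts, 11 of 11 sets were above background and 6 of 11 were higher in clone 2, as fewer sets remain and Phgdh drops out. The count of members and of other pathway genes at 2-fold or more was 0 in the deposited values and under every alternative run for it. The direction of small differences depends on the scale: the sign of 4 member sets changed under median centring, and of 5 each under quantile and loess normalization, where the median difference of the members was 0.13, -0.03 and -0.02. The median over all probe sets above background was 0.18, 0 and 0.01 in these settings, against 0.09 as deposited. Shmt2 kept its direction in all 4 sets, with differences of 0.105 to 0.41 after quantile and 0.10 to 0.44 after loess normalization. By the mean over the probe sets of a gene, 5 of 8 enzymes were higher in clone 2. Without Shmt2, chosen after the data were seen, 9 of 17 member sets were higher.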
